A study of Mus musculus with 11 samples.

Results

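Gene expression in molar tooth germs that lack Cilk1 was compared with that in wild-type germs, over the 16755 genes listed in the table of maxillary molars. The comparison held every wild-type and every Cilk1-/- library, 4 of each, and so 8 of the 11 libraries of the series. The germs were upper molars at the cap stage, taken at E14.5 from littermate embryos of both sexes on a C57BL/6 background. Each biological replicate was given as n = 6, where the unit that the 6 counts is not stated. The Cilk1-/- embryos carried Cilk1 without its exon 6 on both alleles, and the deletion had been passed through the germline after recombination by EIIa-Cre. The deletion was therefore present in every cell of the embryo, dental or not, and wild-type embryos did not carry it. The other 3 libraries came from a compound mutant that also lacks PCS1-MRCS1, a region with oral enhancers of Shh, and their values are set beside some genes below but entered no test other than an alternative fit of all 11 libraries. Nothing in the labels says that the replicates were separate litters, so p-values measure the spread between these libraries, which may be technical.

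CILK1, also known as ICK, is a serine/threonine kinase of the primary cilium. It acts near the tip of the cilium, where it limits the length of the cilium and helps to turn round the intraflagellar transport trains that carry cargo along it. Vertebrate cells receive Hedgehog (Hh) signals through this organelle. Shh binds its receptor Ptch1, Smo then enters the cilium, and the Gli factors leave it in an activating form that raises transcription of Gli1, Ptch1 and other targets. In the cap-stage molar, Shh is made by the epithelial enamel knot and is received by epithelium and mesenchyme, and it is known to restrain Wnt signaling there, in part through the secreted inhibitor Sostdc1.

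The deleted exon is shown because it defines the genotype. In GRCm38 (GENCODE vM21, where the gene is named Ick, as in the table) exon 6 of 14 in transcript ENSMUST00000118869.7 lies on the plus strand at chr9:78150529-78150661. It is wholly coding and is shared by 3 of the 8 annotated Ick transcripts. The 133 bases follow 119 whole codons, and 133 leaves a remainder of 1 when divided by 3, so that its loss shifts the reading frame. The annotated frame holds 629 codons, and the frame without this exon meets a stop after 127. In the sequence the frame is read from base 3.
Cilk1 exon 6: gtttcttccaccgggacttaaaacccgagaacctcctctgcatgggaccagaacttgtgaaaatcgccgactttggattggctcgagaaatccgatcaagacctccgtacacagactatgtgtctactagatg

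Cilk1 was lower in Cilk1-/- germs, as the targeted gene, although its value did not fall to 0. Values here are log2(value + 1) of a normalized level, probably FPKM, and a difference between groups of such values is called a log2 fold change, and it is an underestimate for genes at low levels. Cilk1 stood at 3.47, 3.58, 3.45 and 3.60 in wild-type replicates 1 to 4 and at 2.86, 2.72, 2.84 and 2.76 in Cilk1-/- replicates 1 to 4. The groups did not overlap, and the log2 fold change was −0.73 (standard error 0.0496, adjusted p = 0.000386, limma). An exact permutation test over the 8 libraries gave the smallest two-sided p that 4 against 4 allows, 0.0286. The exact test over the 4 same-numbered pairs gave 0.125, which is the smallest that it allows and cannot pass 0.05. The compound mutant stood at 2.67, 2.65 and 2.60. One value is given per gene, so reads from transcripts without exon 6 cannot be told from reads with it, and the deletion itself was not measured.

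Across the table, 59 genes were lower in Cilk1-/- (0.352% of the 16755) and 71 were higher (0.424%). A gene is called lower or higher here at an adjusted p under 0.05 (limma, Benjamini-Hochberg over all genes) with a fold change of at least 1.5, which is 0.585 on the log2 scale. Of these 130 genes, 114 had wild-type and Cilk1-/- ranges that did not meet. Without the fold threshold, 1331 genes were lower (7.94%) and 1213 were higher (7.24%) at the same adjusted p, so that most differences past the test were smaller than 1.5-fold. The median over all genes was 0.0032, with 8169 genes below wild type and 8586 above. The level of the called genes differed by direction, since the median wild-type value was 2.78 for genes called lower, 1.86 for genes called higher and 3.02 for all genes. Of the genes called higher, 16 had a wild-type mean under 1. With a pseudocount of 0.1 in place of the added 1, 152 genes were lower and 285 were higher, which moved the share of higher calls from 54.6% to 65.2%. Without wild type replicate 4 the genes called higher numbered 44, and without Cilk1-/- replicate 3 they numbered 46.

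Same-numbered wild-type and Cilk1-/- libraries were not independent in the deposited values, and this bears on every p-value from fits without the block. Over all genes, the deviations of the paired libraries from their genotype means correlated at −0.741, −0.892, −0.848 and −0.792 in pairs 1 to 4. Where one library of a pair was listed at exactly 0, its partner was too, in 55, 12, 17 and 0 genes of pairs 1 to 4. A library that sat high for a gene thus had a partner that sat low, and the origin of this mirroring was not tested. With the replicate number as a block in the model, the median standard error over all genes rose from 0.0522 to 0.0766. Then 19 genes were called lower (0.113%) and 12 higher (0.0716%), all 31 of them among the 130. The number at an adjusted p under 0.05 without the fold threshold went from 2544 to 49. At an unadjusted p under 0.05 with the block there were 1299 genes lower (7.75%) and 1295 higher (7.73%). Those shares, 1792 genes whose libraries do not overlap with Cilk1-/- lower (10.7%) and 1702 with it higher (10.2%), and 1916 genes that moved the same way in the 4 pairs in each direction (11.4% lower, 11.4% higher), are the background for the counts below, with the shares called and the shares past the adjusted p given above. Non-overlap and the same direction in the 4 pairs nearly coincide when pairs are mirrored, so they are not separate evidence. The lists below were written with earlier results of these data known, so their counts are description only. In the blocked fit, leaving out pair 2 gave 11 lower and 7 higher, leaving out pair 4 gave 17 lower and 4 higher, leaving out pair 3 gave 16 and 13, and leaving out pair 1 gave 60 and 78.

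**Figure D1:**
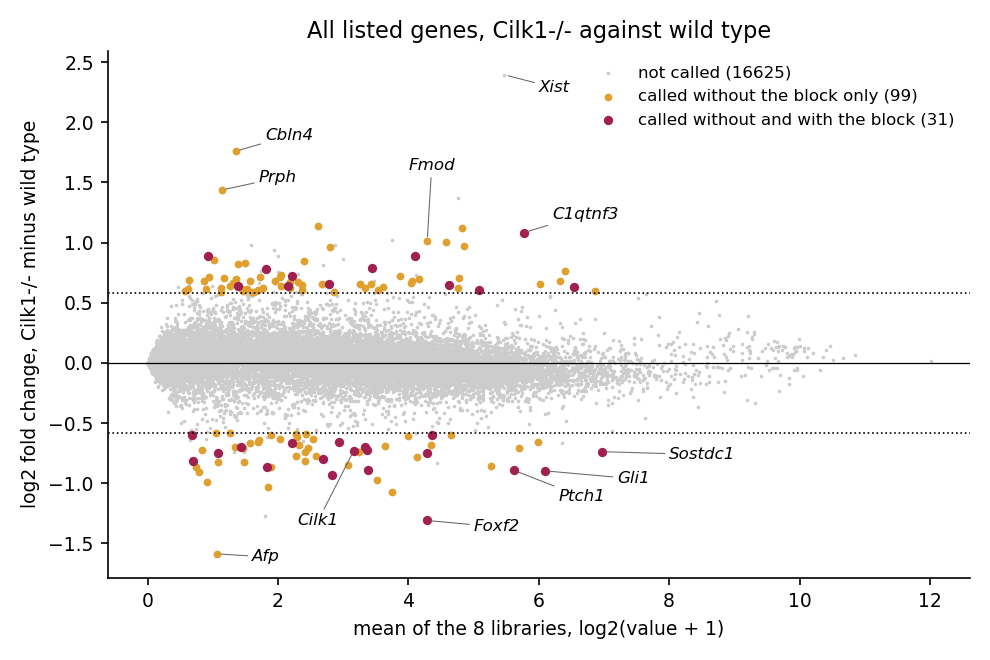
Each point is 1 of the 16755 genes, placed by the mean of the 8 libraries (x axis, log2(value + 1)) and by the log2 fold change of Cilk1-/- minus wild type (y axis). Dotted lines mark the 1.5-fold threshold. The 31 genes called with and without the replicate block include Foxf2 at −1.31 and C1qtnf3 at 1.08, and Xist at 2.4 is among those not called.

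Of the 31 genes called with the block, the 19 lower genes included the Hh receptor gene Ptch1, the Hh effector gene Gli1, the forkhead genes Foxf2 and Foxl1, the secreted inhibitor gene Sostdc1 and Cilk1 itself. C1qtnf3, which codes for a secreted C1q/TNF-related protein, led the higher ones. It stood at 5.03, 5.33, 5.33 and 5.21 in wild type and at 5.89, 6.35, 6.49 and 6.50 in Cilk1-/-, which gave a difference of 1.08 on the log2 scale (standard error 0.0790 and adjusted p = 0.00403 with the block, limma). Its value was higher in each of the 4 pairs and the groups did not overlap. The next by p-value were Ptch1, Cilk1, Mir1940, Ngfr, Tspan11, Tagln3, Gli1, Zim1, Smoc1, Adcy7 and Foxf2, with adjusted p between 0.00979 and 0.0184 in the blocked limma fit.

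Ngfr, the low-affinity neurotrophin receptor that also marks neural crest derivatives, stood at 4.85, 4.62, 4.58 and 4.61 in wild type and at 3.83, 3.96, 3.95 and 3.93 in Cilk1-/-. Smoc1, a secreted matricellular protein that modulates BMP signaling, stood at 3.12, 3.39, 3.43 and 3.21 against 2.52, 2.24, 2.26 and 2.41. Tspan11, a tetraspanin, had the narrowest wild-type range of the named genes here, 3.25 to 3.30, against 2.54 to 2.65. These genes were lower by 0.75, 0.93 and 0.66 on the log2 scale, and in each the highest Cilk1-/- library lay below the lowest wild-type one. Adcy7, an adenylyl cyclase that makes cyclic AMP, had a log2 fold change of −0.70, and Tagln3, a neuronal actin-binding protein, one of −0.72. Zim1, an imprinted zinc finger gene, was higher by 0.79, from 2.94 to 3.11 in wild type to 3.70 to 4.0 in Cilk1-/-. Mir1940 was higher by 0.89 at a wild-type range of 0.40 to 0.60. It has no GENCODE entry of that name, so its position and overlap with other genes were not checked.

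Other genes called with the block are named because the set is small. The lower ones included Sema7a (a membrane-anchored semaphorin), Ndp (norrin, a ligand of the Wnt receptor Fzd4), Slc1a1 (a glutamate transporter), Cbln1 (a secreted synapse organizer), Foxl1, Sostdc1, Aim2 (a DNA sensor), Snai1 (a zinc finger repressor of epithelial genes) and Hist1h2bl. The higher ones were Shank1 (a synaptic scaffold), Fabp7 (a fatty acid binding protein of glia), Diras2 (a small GTPase), Mgp (matrix Gla protein), Thbs1 (thrombospondin 1), Krt15 (a keratin of basal epithelium), Fam198a, the long noncoding Gm20554 and 4930474M22Rik, which is annotated antisense to Smoc2. Snai1 stood at 4.54, 4.66, 4.68 and 4.73 in wild type and at 4.16, 4.03, 4.07 and 3.96 in Cilk1-/-, a log2 fold change of −0.60. In the compound mutant Snai1 stood near wild type, at 4.69, 4.48 and 4.53. Krt15 is the only one of the 31 whose groups overlapped, with 6.57 in wild type replicate 3 and 6.57 in Cilk1-/- replicate 1, while each pair was higher in Cilk1-/-. Hist1h2bl is uncertain, since histone genes have near-identical copies between which counting can split reads. When each pair in turn was left out of the blocked fit, 8 of the 19 lower and 3 of the 12 higher genes were called all 4 times, namely Ptch1, Gli1, Cilk1, Smoc1, Ngfr, Tspan11, Tagln3, Adcy7, C1qtnf3, Zim1 and Mir1940. Without the block, 35 of the 59 lower and 32 of the 71 higher genes were called in each of the 8 fits that left out 1 library.

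**Figure D2:**
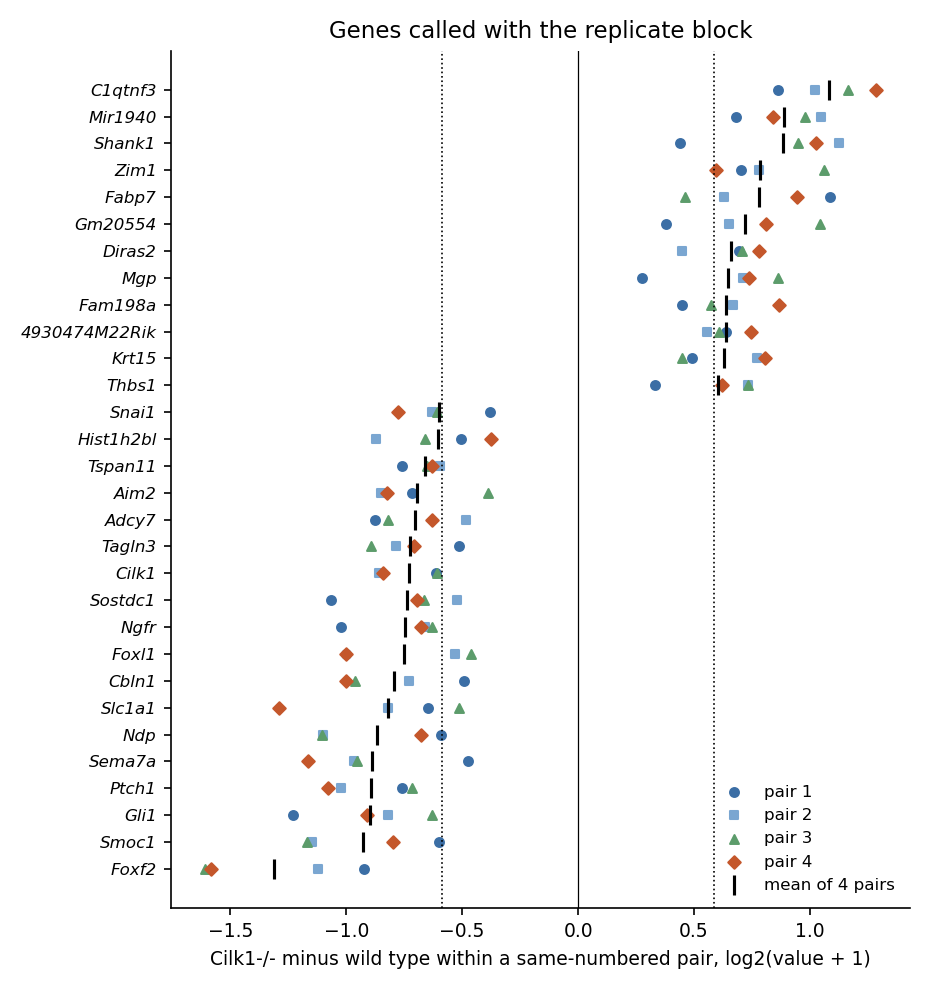
For the genes called with the replicate block, 1 of the 31 left out, 4 points each give Cilk1-/- minus wild type within a same-numbered pair (x axis, log2(value + 1)) and the black bar gives their mean, with dotted lines at 1.5-fold. All 4 points of every gene lie on one side of 0, and the widest spreads include Slc1a1 and Foxf2.

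Genes that Hh signaling is known to induce lay below wild type for the most part. Of 18 listed Hh targets found, 7 were called lower and 0 higher without the block, and 5 lower with it, beside 0.352% and 0.113% of all genes. The list was written with earlier results of these data known, and the paper names several members as lower in these libraries. The contrast with all genes is therefore no independent support. The median log2 fold change was −0.488, 16 of the 18 lay below wild type, and for 12 the libraries did not overlap. With each library left out in turn, 5 to 8 were called lower, and 6 were in replicates 1 to 3 alone. Summed after turning back the log2 scale, the list came to 650 to 682 in wild type and to 433 to 490 in Cilk1-/-, a ratio of means of 0.695.

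Gli1, the Gli factor that is itself induced by the pathway, stood at 6.68, 6.53, 6.42 and 6.55 in wild type and at 5.46, 5.72, 5.79 and 5.64 in Cilk1-/-. Ptch1, the Shh receptor that restrains Smo, stood at 5.96, 6.16, 5.98 and 6.18 against 5.20, 5.14, 5.26 and 5.11. Both genes were clear of overlap, with log2 fold changes of −0.90 for Gli1 (standard error 0.0774, adjusted p = 0.000866 and 0.0104 with the block, limma) and −0.89 for Ptch1 (standard error 0.0616, adjusted p = 0.000386 and 0.00979 with the block, limma). Both calls were lost in the fit of all 11 libraries with the block (adjusted p = 0.149 for each, limma), where of all genes only Cilk1, Tspan11, C1qtnf3 and Mir1940 were called. That fit blocks compound mutant libraries with same-numbered ones, but mirroring was checked only between wild type and Cilk1-/-. It also lets the compound mutant libraries set part of the spread. In the compound mutant Gli1 stood at 4.51, 5.48 and 5.36, and Ptch1 at 3.82, 4.45 and 4.95. Gli1 lies at chr10:127329882-127341974 and Ptch1 at chr13:63508328-63573598, both on the minus strand.

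Foxf2 had the largest difference of the list, and other forkhead genes on it lay below wild type too. Foxf2, a transcription factor of orofacial mesenchyme, stood at 4.81, 4.84, 5.06 and 5.03 in wild type and at 3.88, 3.72, 3.46 and 3.45 in Cilk1-/-, lower by 1.31 on the log2 scale or 2.48-fold on this scale (adjusted p = 0.00068, and 0.0184 with the block, limma). Foxl1 stood at 1.63, 1.37, 1.29 and 1.55 against 0.63, 0.84, 0.83 and 0.55, with a log2 fold change of −0.75 and adjusted p = 0.0496 with the block (limma). It was called in none of the 4 blocked fits that left out a pair. Foxd1 fell by 0.66 and was called without the block only (adjusted p = 0.00826, and 0.0651 with it, limma). Without Cilk1-/- replicate 4 the difference of Foxd1 was −0.583, just under the fold threshold. Foxf1, with a log2 fold change of −0.53, passed the adjusted p but not the fold threshold, with 5.53, 5.53, 5.28 and 5.59 in wild type and 4.94, 4.93, 5.12 and 4.81 in Cilk1-/-. The long noncoding gene 1700018A04Rik, named because it lies next to Foxf2 and is annotated in the opposite direction, occupies chr13:31565492-31625792 on the minus strand, and Foxf2 lies at chr13:31625816-31631403 on the plus strand. It stood at 1.75, 1.89, 1.71 and 2.18 in wild type and at 1.31, 1.07, 1.23 and 0.65 in Cilk1-/-, and was called lower without the block (log2 fold change −0.82, adjusted p = 0.0114, and 0.112 with it, limma).

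Further targets on the list lay below wild type as well. Hhip, a membrane protein that sequesters Hh ligands, stood at 2.28, 2.16, 2.51 and 2.38 in wild type and at 1.87, 2.05, 1.77 and 1.84 in Cilk1-/-. Its log2 fold change of −0.45 was below 1.5-fold (adjusted p = 0.0122, and 0.118 with the block, limma). Every Cilk1-/- library lay below every wild-type one. Hsd11b2, which inactivates glucocorticoids, was called lower at −0.59 without the block, and its difference fell under the fold threshold, at −0.563 to −0.531, without Cilk1-/- replicate 2 or 4 or wild type replicate 2 or 4. Osr2, a zinc finger factor that limits the tooth field, was at −0.40 with no overlap. The cell cycle targets Ccnd1 and Ccnd2 stood at 0.27 and −0.10, and neither passed the test.

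Ligands and transducers of the pathway, other than Ptch1 and Gli1, were not called. Of 23 listed components, Ptch1 and Gli1 were called lower, in both fits, and 0 were called higher. Their median was −0.0673. The following are named for their roles after their values were seen. Shh stood at 4.76, 4.93, 5.18 and 4.18 in wild type and at 4.79, 5.0, 4.93 and 5.66 in Cilk1-/-, where pair 4 alone was far apart and the groups overlapped (adjusted p = 0.352, limma). Smo, the transducer in the ciliary membrane, had a log2 fold change of −0.14 (adjusted p = 0.0899, limma). Gli2, the main activator, was at −0.15 and Gli3, the main repressor, at 0.15, with adjusted p of 0.274 and 0.107 (limma), and protein processing of the Gli factors is not seen in RNA. Cdon, a co-receptor of Shh, stood at 3.42 to 3.62 in wild type and at 3.78 to 3.95 in Cilk1-/-, without overlap and below 1.5-fold.

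**Figure D3:**
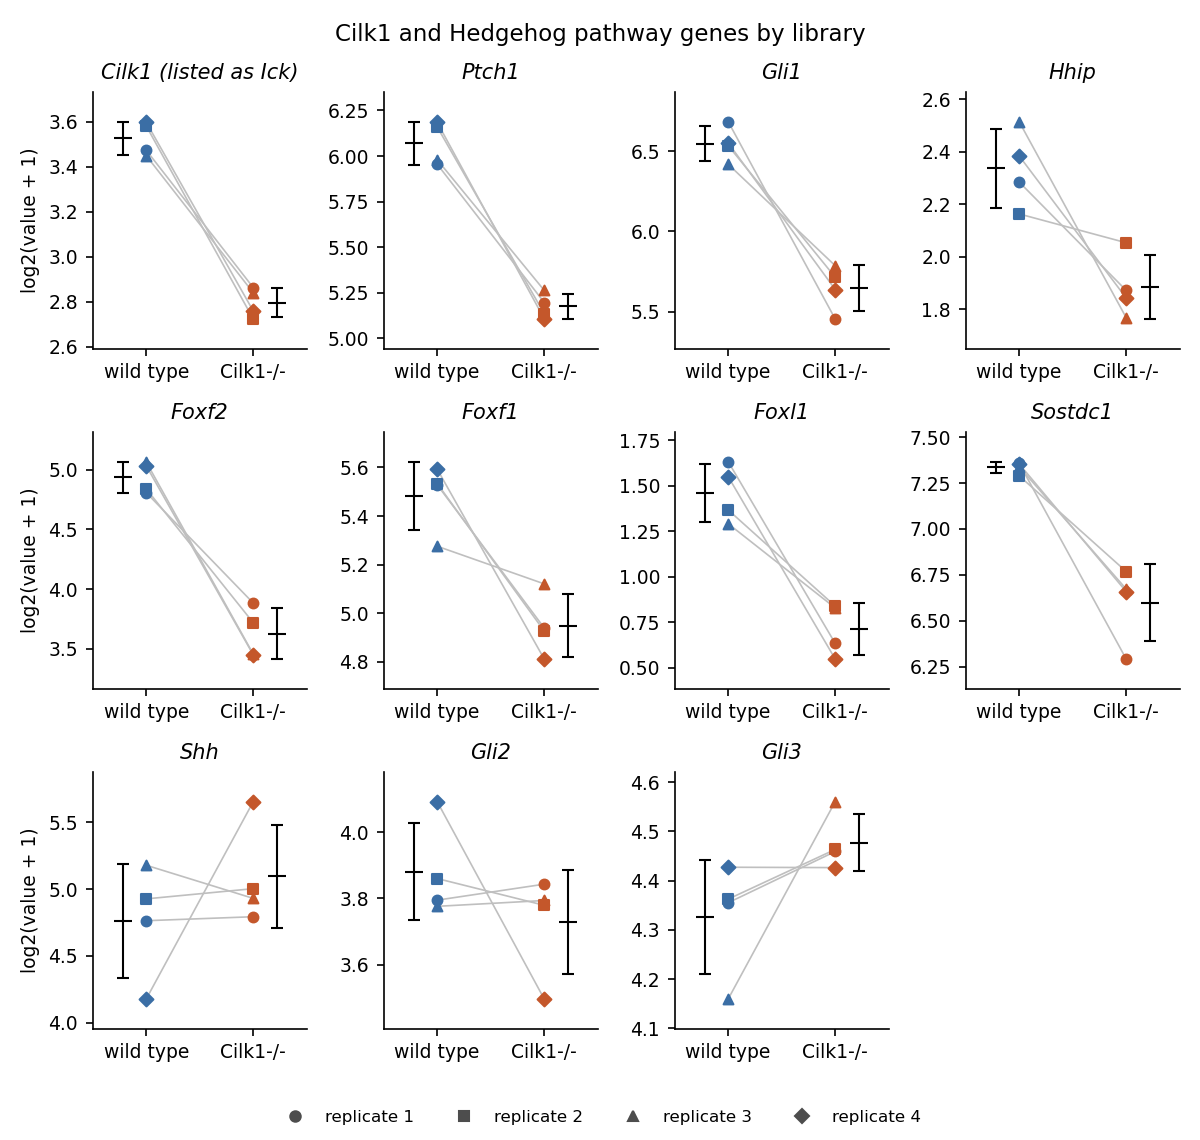
Each panel shows log2(value + 1) of 1 gene in the 4 wild-type (left, blue) and 4 Cilk1-/- libraries (right, orange), with same-numbered libraries joined and the mean and SD beside them. The y axes differ between panels and do not start at 0. Cilk1, Ptch1, Gli1, Hhip, Foxf2, Foxf1, Foxl1 and Sostdc1 show no overlap between genotypes, while Shh, Gli2 and Gli3 do not show a difference past the test.

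Genes for the cilium itself were close to wild type. None of 27 intraflagellar transport genes was called in either direction, with or without the block, and their median was 0.000489, within −0.199 to 0.179. At an unadjusted p under 0.05 with the block (limma), 1 of them was lower and 0 higher, beside 7.75% and 7.73% of all genes. The member farthest from wild type was Ift27, a small GTPase of the complex, at 4.46, 4.61, 4.50 and 4.55 in wild type and 4.44, 4.24, 4.36 and 4.28 in Cilk1-/-. Among 32 genes of the ciliary membrane and transition zone, 0 were called, 2 were lower and 1 higher at the unadjusted p, and the median was 0.00119. Fuz, Tctn2 and B9d2 had the largest differences there, 0.23, −0.22 and −0.19. A list of 10 genes included the kinase family of CILK1, kinesin-2, which is the motor of transport towards the tip, and Fgfr3. Only Cilk1 was called in it. The sister kinases Mak and Mok stood at 0.06 and −0.09. Fgfr3, a receptor kinase on the same list, had a log2 fold change of 0.55 that passed the adjusted p (0.0122, limma) but not the fold threshold, and its libraries did not overlap.

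Sostdc1, a secreted inhibitor of Wnt and BMP signaling that limits tooth number, had the highest wild-type level of the genes called lower. It stood at 7.36, 7.29, 7.34 and 7.35 in wild type and at 6.29, 6.77, 6.67 and 6.66 in Cilk1-/-. The wild-type libraries lay between 7.29 and 7.36 and every Cilk1-/- library lay below them. The log2 fold change was −0.74 (standard error 0.0907, adjusted p = 0.00297, and 0.0228 with the block, limma), and the compound mutant stood at 5.46, 6.36 and 6.24. The call was lost in the fit of all 11 libraries (adjusted p = 0.0545, and 0.140 with the block, limma) and in the blocked fit without pair 3 (0.0567). Of 14 secreted Wnt inhibitors, Sostdc1 and Dkk1 were called lower and 0 higher, and with the block only Sostdc1 was. The share of all genes called lower was 0.352%, and 0.113% with the block. Dkk1, which blocks the Wnt co-receptors, stood at 3.51, 4.09, 4.32 and 4.03 against 3.41, 3.37, 3.06 and 3.36, a log2 fold change of −0.69. Its call was lost in 5 of the 8 fits without 1 library (Cilk1-/- replicates 3 and 4, wild type replicates 2, 3 and 4), with differences of −0.707 to −0.576, and with the block (adjusted p = 0.182, limma). Of the list, 7 members lay below and 7 above wild type, 4 were lower and 0 higher at an adjusted p under 0.05 without the block (limma), and the summed level was 661 to 744 in wild type and 523 to 638 in Cilk1-/-.

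Genes that Wnt signaling induces lay mostly above wild type. Of 14 Wnt feedback targets 12 lay above, the median was 0.136, and 1 was called higher. This was Lgr5, an R-spondin receptor that marks stem cells in several epithelia, at 3.58, 3.17, 3.11 and 3.33 in wild type and 3.64, 4.10, 4.15 and 3.84 in Cilk1-/-. Its log2 fold change was 0.63 (adjusted p = 0.0155, and 0.171 with the block, limma), and it came to 0.563 to 0.58 without Cilk1-/- replicate 2 or 3 or wild type replicate 3, under the fold threshold. Lef1, a transcription factor of the pathway, stood at 4.48, 4.69, 4.71 and 4.74 against 4.93, 4.90, 4.87 and 4.85. The difference of 0.23 had an adjusted p of 0.028, and of 0.189 with the block (limma), and was far below 1.5-fold. Axin2, the usual readout and named here for that, was at 0.18 (adjusted p = 0.141, limma). Of its members 2 were lower and 3 higher at an adjusted p under 0.05 without the block, and the number higher was 1 to 5 without 1 library and 0 in replicates 1 to 3 alone. Tcf7, a transcription factor of the pathway named after its values were seen, was one of the lower ones, at 4.27, 4.34, 4.73 and 4.31 in wild type and 3.84, 3.94, 3.63 and 3.90 in Cilk1-/-, without overlap and just under the fold threshold at −0.584.

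Signals of the enamel knot, the epithelial center that directs cusp formation, were not called in either direction. Of its 20 listed genes 13 lay above wild type, with a median of 0.135. At an unadjusted p under 0.05 with the block (limma), 4 were higher and 1 lower, beside 7.73% and 7.75% of all genes. Edar, the receptor of ectodysplasin, stood at 2.17, 1.73, 2.01 and 1.79 in wild type and at 2.03, 2.73, 2.51 and 2.65 in Cilk1-/-. Msx2, a homeobox factor of knot and mesenchyme, stood at 3.47, 3.83, 3.73 and 3.32 against 3.99, 3.92, 4.16 and 4.42. Edar overlapped and Msx2 did not, and neither reached 1.5-fold, at 0.56 and 0.54. Dkk4 was at −0.41 with overlap. Of 26 BMP and TGF-beta genes, 1 was called higher, Gdf10, a TGF-beta family ligand, at 3.18, 2.64, 2.94 and 2.94 against 3.60, 3.83, 3.63 and 3.27. Its log2 fold change was 0.66, and it was 0.562 and 0.576, under the fold threshold, without Cilk1-/- or wild type replicate 2. With the block its adjusted p was 0.109 (limma). None of 11 FGF feedback genes was called. Dusp6, a phosphatase induced by FGF signaling, did not overlap between genotypes, at 6.04, 6.12, 6.3 and 6.12 in wild type and 5.85, 5.92, 5.71 and 5.92 in Cilk1-/- (log2 fold change −0.29), with Etv4 and Etv5 at −0.39 and −0.20 and overlapping.

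The labelled tissue was checked with its defining markers. The epithelial genes Krt14, Cdh1 and Epcam lay between 4.5 and 8.18 in the 8 libraries, and the mesenchymal genes Msx1, Pax9, Lhx8 and Barx1 between 5.14 and 7.83, so both tissues of a tooth germ were present. Since the germs were sequenced whole, fewer cells of a type cannot be told apart from less RNA per cell. Of 20 genes of dental epithelium 1 was called, Krt15, which was higher by 0.63, from 6.07, 6.17, 6.57 and 6.10 to 6.57, 6.94, 7.02 and 6.90 (adjusted p = 0.0149, and 0.0228 with the block, limma). Without Cilk1-/- replicate 3 or wild type replicate 1 its difference was 0.575 to 0.579, just under the fold threshold. In the compound mutant Krt15 stood at 5.78, 5.59 and 6.02, below every wild-type library. The summed level of the epithelial list overlapped between genotypes, at 1150 to 1460 and 1220 to 1500.

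Of 22 genes of dental mesenchyme none was called. With the block, 8 of them were lower and 1 higher at an unadjusted p under 0.05 (limma), beside 7.75% and 7.73% of all genes. Their median was −0.0998 with 13 below wild type, and their summed level overlapped, at 1190 to 1300 in wild type and 1070 to 1210 in Cilk1-/-. The members farthest from wild type were Msx2 at 0.54, Osr2 at −0.40 and Fgf3, a mesenchymal FGF, at −0.39. Osr2 stood at 6.08, 5.89, 5.72 and 5.98 against 5.39, 5.56, 5.69 and 5.41, and Fgf3 overlapped. Pax9 and Barx1, a pair of transcription factors needed for molars, were at −0.26 and −0.31 with adjusted p of 0.0133 and 0.0269 (limma), while Msx1 was at −0.05. With the block, adjusted p was 0.148 for Pax9 and 0.186 for Barx1 (limma). Of the palate mesenchyme list of 9 genes 0 were called.

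Several genes of the fibrous matrix were higher in the fit without the block. Of 14 small leucine-rich proteoglycans, which bind collagen fibrils and growth factors, 4 were called higher and 0 lower, beside 0.424% and 0.352% of all genes, 13 lay above wild type and the median was 0.401. Fmod, or fibromodulin, stood at 3.94, 3.68, 3.68 and 3.82 in wild type and at 4.26, 5.03, 5.06 and 4.84 in Cilk1-/-. Aspn, or asporin, stood at 6.09, 5.88, 6.19 and 5.93 against 6.45, 6.94, 6.81 and 6.95. Dcn, or decorin, stood at 6.19, 5.93, 5.94 and 5.91 against 6.23, 6.77, 6.90 and 6.79. In these genes Cilk1-/- replicate 1 was the lowest of its group, and in Dcn it lay only just above wild type replicate 1. The log2 fold changes were 1.02 for Fmod, 0.76 for Aspn, 0.68 for Dcn and 0.62 for Epyc, a proteoglycan of cartilage and dental tissue. In the compound mutant Aspn stood at 6.02, 5.65 and 6.16 and Dcn at 5.85, 5.71 and 6.15, not above their wild-type ranges. Fmod stood there at 4.17, 3.98 and 4.66 and Epyc at 3.53, 0.80 and 0.70, above theirs. None of the 4 passed with the block, where adjusted p (limma) was 0.0541 for Aspn, 0.0703 for Epyc, 0.105 for Fmod and 0.142 for Dcn. With each library left out, 3 to 6 of the list were called, Epyc being lost without replicate 3 of either genotype (0.518 and 0.56), and in replicates 1 to 3 alone 0 were called. Lum, another member with high values, overlapped and went the other way in pair 1.

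Of 28 collagens and other fibrous matrix genes, Itga11, Col16a1 and Thbs2 were called higher and 0 lower, beside 0.424% and 0.352% of all genes. With the block 0 were called in either direction. Itga11, a collagen receptor subunit of fibroblasts, stood at 2.16, 1.76, 2.04 and 1.95 in wild type and at 2.47, 3.10, 2.85 and 2.88 in Cilk1-/-, a log2 fold change of 0.85. Col16a1 stood at 5.96, 5.48, 5.76 and 5.54 against 5.96, 6.58, 6.36 and 6.47, and its libraries overlapped. Its call was lost in 5 of the 8 fits without 1 library (Cilk1-/- replicates 2, 3 and 4, wild type replicates 2 and 4), with differences of 0.578 to 0.649. Thbs2 was at 0.62 and came to 0.568 to 0.579 without Cilk1-/- or wild type replicate 2 or 4. The matrix-related genes Mgp and Thbs1 were called with the block as well (adjusted p = 0.0455 and 0.0228, limma). Each was called in only 1 of the 4 blocked fits that left out a pair. Mgp, an inhibitor of calcification, stood at 4.46, 4.30, 4.30 and 4.14 against 4.74, 5.01, 5.17 and 4.88, and Thbs1 at 4.92, 4.71, 4.70 and 4.77 against 5.25, 5.44, 5.44 and 5.40. Col1a1, the main fibrillar collagen, overlapped between genotypes with a difference of 0.24.

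**Figure D4:**
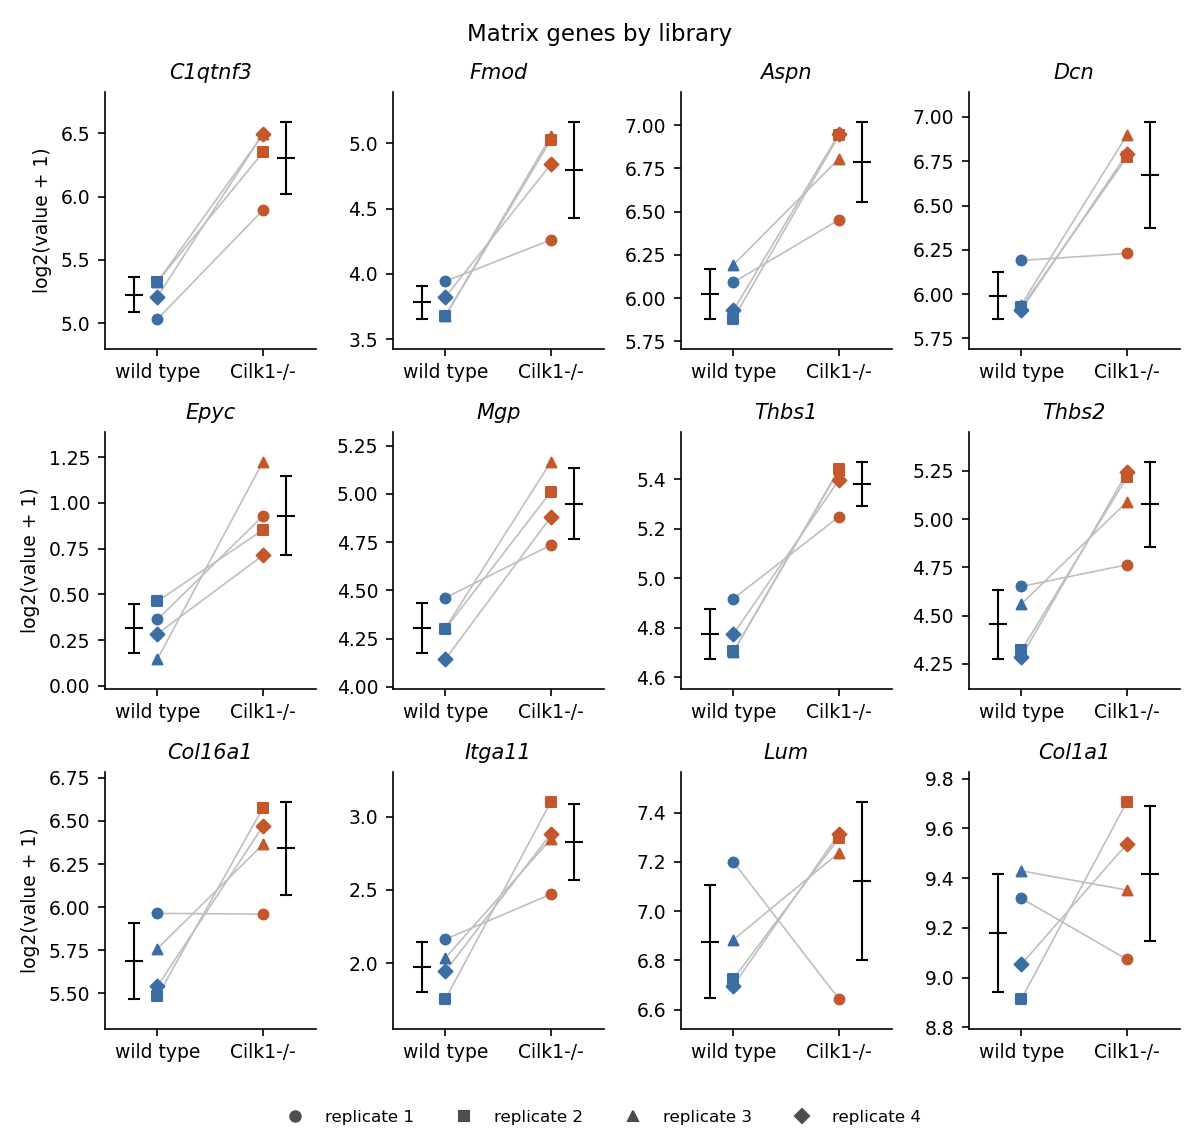
Panels show log2(value + 1) of 12 matrix-related genes in the 4 wild-type and 4 Cilk1-/- libraries, with same-numbered libraries joined and the mean and SD beside them; y axes differ and do not start at 0. In the higher genes Cilk1-/- replicate 1 (circle) is mostly the lowest of its group, and Lum and Col1a1 fall from wild type to Cilk1-/- in pair 1.

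Markers of tissues that border the germ were read beside the matrix genes, and their part in these results was not tested. None of the tendon, cartilage, osteoblast or skeletal muscle genes was called with the block, and the only tendon gene called without it was Fmod, which is also on the proteoglycan list. All 8 tendon genes lay above wild type, with a median of 0.527 and a summed level of 46.5 to 58.8 in wild type and 71.7 to 102 in Cilk1-/-. The defining tendon genes were present in both genotypes, Scx at 2.91 to 3.6 and Tnmd at 2.58 to 3.57 over the 8 libraries, and neither was called. Thbs4 stood at 3.06, 3.41, 3.98 and 2.51 against 4.16, 4.16, 3.86 and 4.86, overlapping. Of 17 cartilage genes Matn4 and Col9a1 were called higher, beside 0.424% of all genes. Of the 17, 13 lay above wild type, and the summed level was 121 to 149 against 151 to 175. Matn4, a matrilin, stood at 4.15, 4.08, 4.83 and 4.01 against 5.19, 5.65, 5.09 and 5.63, a log2 fold change of 1.12 that did not pass with the block (adjusted p = 0.185, limma). Col9a1 was at 0.60, and its call was lost in 6 of 8 fits without 1 library (replicates 1, 3 and 4 of each genotype, 0.473 to 0.659) and with the block (adjusted p = 0.144, limma). Col2a1, the defining collagen of cartilage, was at 0.20, and Acan was near 0, at 0.00252 to 0.831.

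Osteoblast genes differed widely between libraries of one genotype and none of 14 was called. Their median was −0.178, and Sp7, their defining factor, lay at 4.72 to 5.07 in all 8 libraries. The summed level of the osteoblast list overlapped, at 1250 to 1760 in wild type and 1400 to 2000 in Cilk1-/-, a ratio of means of 1.15. Spp1, or osteopontin, stood at 1.5, 2.05, 4.13 and 2.05 in wild type and at 1.88, 1.6, −0.02 and 1.2 in Cilk1-/-. Ibsp, a bone sialoprotein, stood at 4.0, 4.02, 6.47 and 4.92 against 4.33, 5.23, 2.88 and 3.63. The log2 fold changes, −1.27 for Spp1, −0.83 for Ibsp and −0.56 for Bglap, had adjusted p of 0.163, 0.424 and 0.332 (limma), and wild type replicate 3 was the highest library in each. Skeletal muscle genes were above wild type in 17 of 17 with a median of 0.452, and 0 were called. Actc1 stood at 1.99, 2.74, 3.24 and 1.58 against 4.10, 2.71, 2.84 and 3.80, so that Cilk1-/- was above wild type in pairs 1 and 4 and below it in pairs 2 and 3. The summed level of the muscle list was 15.8 to 48 in wild type and 32.4 to 87.9 in Cilk1-/-.

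Neural genes were above wild type in 14 of 15, with a median of 0.398, and Prph and Nefm were called higher without the block, beside 0.424% of all genes. Prph, or peripherin, an intermediate filament of peripheral neurons, stood at 0.38, 1.15, −0.32 and 0.46 in wild type and at 1.94, 1.18, 2.85 and 1.46 in Cilk1-/-. The groups were only just apart, and the call was lost in 6 of 8 fits without 1 library (replicates 1, 3 and 4 of each genotype, adjusted p of 0.0606 to 0.0841, limma). Nefm was lost in 5 of 8 (Cilk1-/- replicates 1 and 3, wild type replicates 1, 3 and 4, adjusted p of 0.0562 to 0.0798, limma), and its groups overlapped. With the block, adjusted p was 0.363 for Prph and 0.258 for Nefm (limma). The neuron markers Tubb3 and Stmn2 stood at 3.96 to 4.69 and at 1.03 to 2.4, and the summed level of the list was 59.6 to 73.9 against 73.4 to 89.1. Of 12 genes of Schwann cells and glia, Ngfr was called lower and Fabp7 higher, both with the block as well, beside 0.113% and 0.0716% of all genes there. Fabp7 stood at 1.36, 1.47, 1.63 and 1.23 against 2.45, 2.10, 2.09 and 2.18. The defining gene Sox10 was at 0.22, and 10 of the 12 genes lay above wild type with a median of 0.0877, while the summed level of the glial list was 67.6 to 75.7 against 65.7 to 67.2.

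Genes that mark blood and vessels were near wild type. Of 15 macrophage, 14 erythroid, 15 endothelial and 11 pericyte and smooth muscle genes, 0 were called in either direction in either fit, and the medians were 0.0391, 0.0638, −0.0114 and 0.0639. At an unadjusted p under 0.05 with the block (limma), macrophage genes numbered 0 lower and 1 higher, erythroid genes 1 and 0, endothelial genes 0 and 0, and pericyte genes 0 and 2. Their summed levels overlapped, at 79.2 to 101 and 81.4 to 94.6 for macrophages, 2910 to 3810 and 2980 to 4200 for erythroid cells, 190 to 221 and 181 to 206 for endothelium, and 137 to 140 and 136 to 141 for pericytes. Of 13 genes of oral keratinization 11 lay above wild type and Krt1 was called higher, at 3.08, 3.61, 3.14 and 3.09 against 3.64, 3.55, 4.31 and 3.86. The Krt1 groups overlapped, and its call was lost in 5 of 8 fits without 1 library (Cilk1-/- replicates 3 and 4, wild type replicates 1, 3 and 4, adjusted p of 0.0787 to 0.114, limma) and with the block (0.257). Krt13 stood at 4.24, 3.59, 5.22 and 3.28 against 4.58, 6.02, 5.17 and 6.04, and was not called at a log2 fold change of 1.37. The summed keratinization list overlapped at 422 to 595 and 486 to 610.

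The listed proliferation genes lay below wild type, each by less than 1.5-fold. All 24 were lower in each of the 4 pairs and did not overlap between genotypes, beside 11.4% and 10.7% of all genes. With mirrored pairs these measures nearly coincide and are not separate support. The differences between genotypes were small. The differences of the 24 genes ran from −0.441 to −0.154 with a median of −0.287, and 22 had an adjusted p under 0.05 without the block (limma), beside 7.94% of all genes. With the block 23 had an unadjusted p under 0.05, and 0 were called in either fit. Plk1, a mitotic kinase, stood at 5.29, 5.39, 5.50 and 5.50 in wild type and at 5.10, 5.04, 4.88 and 4.89 in Cilk1-/-. Cdc20, which activates the anaphase-promoting complex, stood at 5.98, 6.06, 6.05 and 6.16 against 5.74, 5.74, 5.66 and 5.56. Ccnb1, or cyclin B1, stood at 5.73, 5.85, 5.95 and 5.91 against 5.62, 5.51, 5.38 and 5.46. These mitotic genes had the largest differences of the list, at −0.44, −0.39 and −0.37, and genes of DNA replication such as Mcm2, named for its role, were at −0.26. The summed level was 1190 to 1320 in wild type and 971 to 1100 in Cilk1-/-. Without 1 library the number with an adjusted p under 0.05 was 13 to 24, the lowest being 13 without Cilk1-/- replicate 4 and 14 without wild type replicate 4. In replicates 1 to 3 alone it was 1.

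Genes of hypoxia and of glycolysis lay above wild type. Of 19 hypoxia genes 17 did, with a median of 0.297, and 10 were higher and 1 lower at an adjusted p under 0.05 without the block, beside 7.24% and 7.94% of all genes, while 11 were higher and 0 lower at an unadjusted p under 0.05 with it (limma). Ndufa4l2, a mitochondrial protein induced in hypoxia, was the only one called, at 4.38, 4.14, 4.81 and 4.13 in wild type and 4.81, 5.65, 5.28 and 5.59 in Cilk1-/-. Its groups touched at 4.81, the log2 fold change was 0.97, and the call was lost without wild type replicate 4 (adjusted p = 0.053, limma) and with the block (0.197). Without 1 library the number of hypoxia genes with a positive difference and an adjusted p under 0.05 was 6 to 10, and it was 6 without Cilk1-/- replicate 3 or wild type replicate 4. In replicates 1 to 3 alone it was 1. All 18 glycolysis genes lay above wild type with a median of 0.192, and 7 of them passed the adjusted p, beside 7.24% of all genes higher, none with 1.5-fold. That number was 2 without replicate 2 or 4 of either genotype and 0 in replicates 1 to 3 alone. Aldoa stood at 7.64, 7.56, 7.84 and 7.55 against 7.98, 8.14, 7.92 and 8.10, without overlap, while Slc16a3, a lactate exporter, and Aldoc overlapped. The summed hypoxia list was 309 to 350 in wild type and 386 to 458 in Cilk1-/-, and the glycolysis list overlapped at 1940 to 2250 and 2110 to 2430.

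Of 20 spliceosome genes 17 lay below wild type, with a median of −0.127, and Ppih was called lower. Ppih, a cyclophilin of the U4/U6 snRNP, stood at 3.51, 4.04, 4.44 and 4.01 in wild type and at 3.39, 3.05, 2.66 and 3.01 in Cilk1-/-, a log2 fold change of −0.97 (adjusted p = 0.0152, and 0.239 with the block, limma). Its groups did not overlap, and pair 1 was far closer than pair 3. A total of 8 members had an adjusted p under 0.05 with a negative difference, beside 7.94% of all genes, and 3 to 8 did without 1 library, the number being 3 without wild type replicate 4 and 4 or 5 without Cilk1-/- replicate 2, 3 or 4 or wild type replicate 2. In replicates 1 to 3 alone 0 did. Immediate early genes were mixed, with 11 of 17 above wild type and Egr3 called lower, at 2.87, 3.47, 3.90 and 3.76 against 3.04, 2.87, 2.31 and 2.39. The Egr3 groups overlapped, and its call was lost in 6 of 8 fits without 1 library (replicates 2, 3 and 4 of each genotype, adjusted p of 0.0639 to 0.11, limma) and with the block (0.337). None of 15 interferon genes or of 16 Notch pathway genes was called, with medians of 0.074 and −0.0596.

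**Figure D5:**
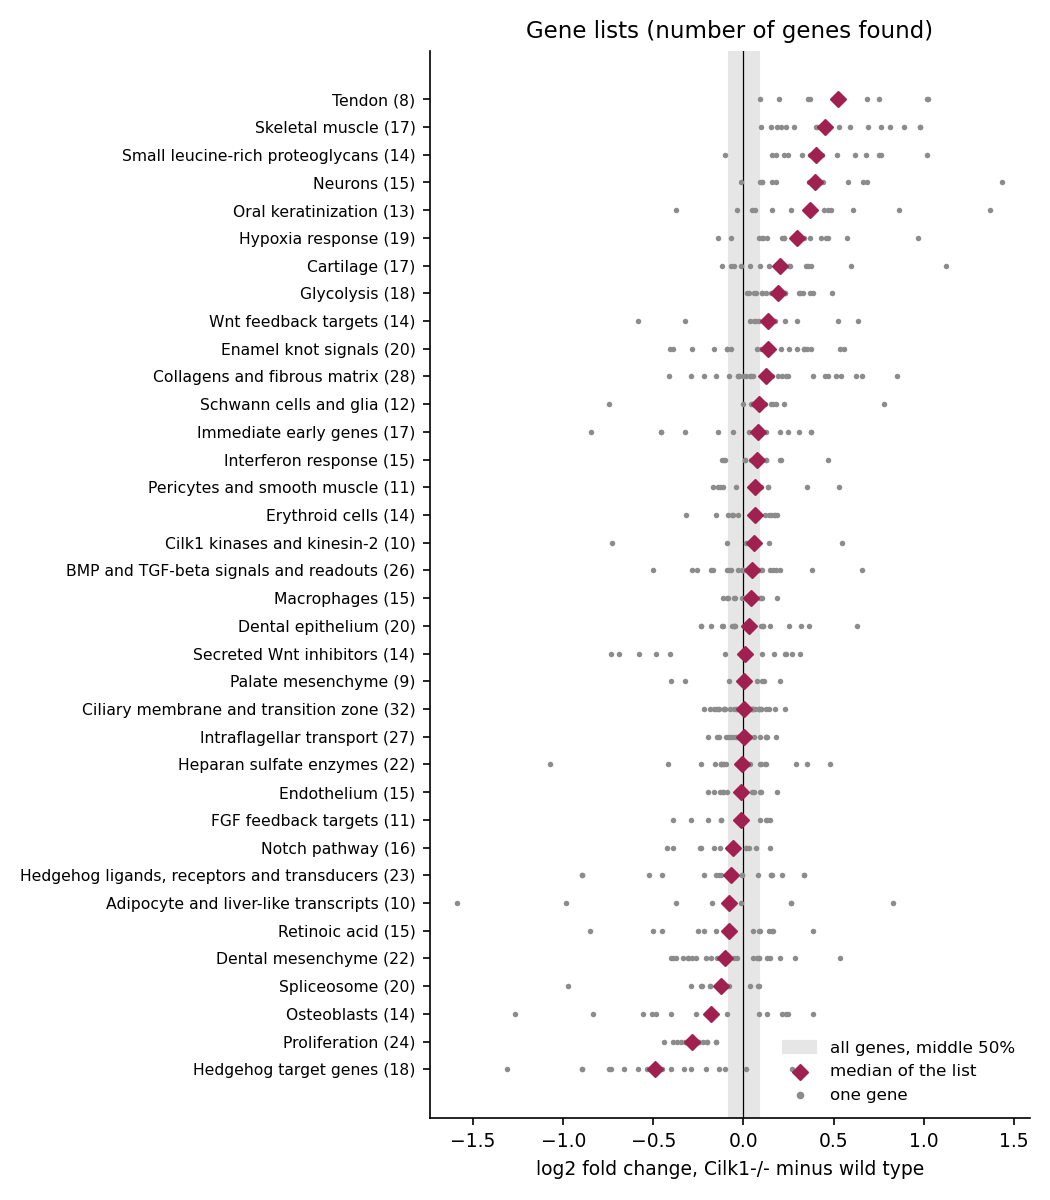
Each grey dot is the log2 fold change of 1 gene (Cilk1-/- minus wild type) in 1 of the 36 lists, and each diamond is the median of its list, ordered from high to low, with the number of genes found in parentheses. The grey band holds the middle 50% of all genes. Hh targets have the lowest median at −0.488 and tendon genes the highest at 0.527, while proliferation genes are all below 0 within a narrow range.

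The lowest called genes without overlap, some of them on the lists above, were Afp, Foxf2, Hs3st6, Nptx2, Apoa1, Ppih, Smoc1, Lcn2, Gli1, Ptch1, Sema7a and Ndp. Hs3st6, a heparan sulfate 3-O-sulfotransferase, stood at 3.89, 4.37, 4.55 and 4.33 in wild type and at 3.37, 3.24, 3.05 and 3.18 in Cilk1-/-, a log2 fold change of −1.07 (adjusted p = 0.0028, and 0.0541 with the block, limma). It was the only one of 22 heparan sulfate enzymes called. Nptx2, a secreted pentraxin, stood at 1.88, 2.48, 2.46 and 2.65 against 1.65, 1.36, 1.25 and 1.08, and Lcn2, a secreted siderophore-binding protein, at 0.89, 1.48, 1.43 and 1.14 against 0.64, 0.17, 0.17 and 0.34. Neither was called with the block, where adjusted p was 0.101 for Nptx2 and 0.102 for Lcn2 (limma). Sema7a stood at 3.52, 3.93, 3.85 and 3.99 against 3.05, 2.97, 2.90 and 2.82, and Ndp at 2.07, 2.39, 2.4 and 2.21 against 1.48, 1.29, 1.29 and 1.53. In Hs3st6, Nptx2, Lcn2, Sema7a and Ndp, pair 1 had the smallest difference of the 4 pairs.

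Afp and Apoa1, which code for plasma proteins of fetal liver and yolk sac, were carried by 2 of the 4 pairs. Afp stood at 1.12, 2.81, 1.11 and 2.4 in wild type and at 0.86, −0.42, 0.92 and −0.28 in Cilk1-/-, and Apoa1 at 0.97, 1.91, 1.01 and 1.71 against 0.75, 0.04, 0.78 and 0.08. In both genes pairs 2 and 4 were far apart and pairs 1 and 3 were close. Values below 0 cannot come from log2(value + 1) of a level without a further step. The call of Afp was lost in 5 of the 8 fits without 1 library (Cilk1-/- replicates 2, 3 and 4, wild type replicates 2 and 4, −1.8 to −1.27), and that of Apoa1 in 4 (replicates 2 and 4 of each genotype, −0.883 to −0.816). Fabp4, of adipocytes and capillaries, was called higher at 0.83 with overlapping groups, a call lost without replicate 2 or 4 of either genotype (adjusted p of 0.0543 to 0.0656, limma). With the block, adjusted p was 0.398 for Afp, 0.313 for Apoa1 and 0.198 for Fabp4 (limma). Of 15 retinoic acid genes 1 was called, Aldh1a2, which makes retinoic acid. It stood at 5.37, 5.94, 5.55 and 5.93 against 5.42, 4.65, 4.86 and 4.45, with overlap in pair 1. Its call was lost in 5 of 8 fits (Cilk1-/- replicates 2, 3 and 4, wild type replicates 2 and 4, adjusted p of 0.0619 to 0.0755, limma) and with the block (0.287).

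The highest called genes without overlap were Cbln4, Prph, B3gat1, Matn4, C1qtnf3, Fmod, Dynlt1f, Gria2, Mir1940, Shank1, Mir1906-1 and Itga11. Cbln4, a secreted synapse organizer of the cerebellin family, stood at 0.95, 0.28, 0.30 and 0.36 in wild type and at 1.74, 2.48, 2.43 and 2.28 in Cilk1-/-, which gave a difference of 1.76 on the log2 scale (standard error 0.192, adjusted p = 0.00193, and 0.0544 with the block, limma). Its relative Cbln1 went the other way, at 2.97, 3.12, 3.15 and 3.15 against 2.47, 2.39, 2.19 and 2.15. B3gat1, which makes the HNK-1 carbohydrate of neural crest derivatives, stood at 2.53, 1.98, 1.56 and 2.09 against 2.86, 3.30, 3.56 and 3.01. Gria2, a glutamate receptor subunit, stood at 2.56, 2.47, 2.04 and 2.22 against 2.87, 3.16, 3.68 and 3.41, and Shank1 at 3.86, 3.56, 3.62 and 3.60 against 4.30, 4.68, 4.57 and 4.62. Of these synaptic and neural genes Shank1 and Cbln1 were called with the block (adjusted p = 0.0299 and 0.0209, limma), and Gria2 and B3gat1 were not (0.157 and 0.173).

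Some called genes are uncertain because of how reads can be shared. Dynlt1f was called higher by 1.0 and Dynlt1c lower by 0.66, neither with the block (adjusted p = 0.195 and 0.139, limma), and as near-identical copies of a dynein light chain gene they may exchange reads. Of the 127 called genes with a GENCODE entry, 10 are miRNA or snoRNA genes, and these 10 each overlap another listed gene, so that their values cannot be told from those of the longer transcript. One of them, Mir1906-1, lies within Meg3 on the same strand and stood at 0.25, 0.80, 1.0 and 0.32 in wild type and at 1.74, 1.33, 1.18 and 1.55 in Cilk1-/-. Its call was lost without wild type replicate 4 (adjusted p = 0.0529, limma) and with the block (0.172). Meg3, named for this overlap, stood at 7.65, 7.25, 7.32 and 7.23 against 7.72, 8.03, 8.04 and 7.95, just under 1.5-fold at 0.57. Without the 407 listed genes of small RNAs 57 genes were lower and 64 higher.

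Xist, the noncoding RNA of the inactive X chromosome, had the largest difference of all genes and was not called. It stood at 5.80, 4.57, 2.44 and 4.27 in wild type and at 5.38, 6.52, 8.23 and 6.52 in Cilk1-/-, a log2 fold change of 2.4 (adjusted p = 0.0761, and 0.475 with the block, limma). Embryos of both sexes entered the libraries, and their share per library is not given. Chromosome 9, which carries Cilk1, held 11 of the 127 called genes with a position (8.66%) and 5.58% of the listed genes with one. These were Cilk1, Sema7a, Apoa1, Aldh1a2, Thy1, Htr3a, Sema3b, B3gat1, Itga11, Fam198a and Mir5133. None of the 15 other listed genes within 1 Mb of Cilk1 was called.

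Promoters were searched for the Gli motif TGGGTGGTC and for its last letters GGGTGGTC, on both strands, in the 300 bases from 250 before to 50 after a RefSeq start (GRCm38.p6). The longer motif contains the shorter one. Of 12776 listed genes with a promoter in the table, 34 held the longer motif (0.266%) and 137 the shorter one (1.07%). Among genes called lower, 1 of 33 with a promoter held it (3.03%), and among genes called higher 0 of 48 did. None of the 8 Hh targets with a promoter in the table held either motif in this window, Ptch1 and Foxf2 among them. The 1 called gene with the motif was Anks4b, a scaffold of brush border protrusions, and its promoter is shown for that. It stood at 1.04, 1.52, 0.81 and 1.35 in wild type and at 0.49, 0.07, 0.59 and 0.10 in Cilk1-/-, with a log2 fold change of −0.87 that passed without the block only (adjusted p = 0.0136 and 0.172, limma). In the sequence, chr7:120173608-120173907 on the plus strand, capitals mark the motif, which begins at −245 from the start.
Anks4b promoter: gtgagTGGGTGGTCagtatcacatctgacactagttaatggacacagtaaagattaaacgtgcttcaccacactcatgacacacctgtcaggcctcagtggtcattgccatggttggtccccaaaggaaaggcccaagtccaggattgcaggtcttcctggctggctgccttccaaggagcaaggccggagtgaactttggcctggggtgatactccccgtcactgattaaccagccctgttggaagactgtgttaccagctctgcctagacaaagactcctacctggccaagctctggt

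Replicates 1 to 3 and replicate 4 carry different protocol texts in the labels, so the direction was also read in each set. In replicates 1 to 3 alone 24 genes were called lower and 14 higher without the block, and 17 and 4 with it. In pair 4, 24 of these 24 lower genes and 13 of the 14 higher genes had the same direction, 20 and 8 of them by at least 1.5-fold, beside 69.1% and 66.6% of all genes that kept their direction. Of the 17 and 4 genes called with the block, 17 and 4 had the same direction in pair 4. The median of the 24 lower genes was −0.729 in replicates 1 to 3 and −0.782 in pair 4. In the compound mutant, which shares the wild-type libraries and is therefore no separate evidence, the mean lay below wild type for 58 of the 59 genes called lower and above it for 54 of the 71 called higher. C1qtnf3 was among those that stood near wild type there, at 5.24, 5.05 and 5.41.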

How the data were processed

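Poly-A RNA of whole E14.5 maxillary molar germs was sequenced (Illumina). Reads were aligned to mm10 with HISAT2 2.0.5 and counted with featureCounts 1.5.0-p3, as the submitters' processing notes name them. The values deposited by the authors are log2(value + 1), probably of FPKM. No counts were used here, so depth is unknown. Between 10 and 31 genes per library lie below 0, and the adjustment that made them is not given in the sources used here.

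The 8 libraries were fitted with limma 3.58.1 (R 4.3.3; lmFit, eBayes with trend and robust) as a log2 table needs, in place of the count test planned for counts, with Benjamini-Hochberg adjustment over 16755 genes. Python 3.11.15, pandas 2.3.3 and matplotlib 3.10.9 served for annotation and plots. The second fit had the replicate number as a block. Same-numbered libraries deviated in opposite directions, as given with the counts, so both fits are reported; the labels give no shared litter or day for a number. List sums are of 2 to the power of the value, less 1. Alternatives were the block, 11 libraries, other thresholds, scalings, filters and pseudocounts, and each library left out.

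The comparison and the 36 lists were chosen with earlier results of these data known. Named are Cilk1, up to 12 genes called with the block by adjusted p, the 12 lowest and 12 highest called genes without overlap, Ptch1, Gli1, Sostdc1, Hhip, Foxf2 and Lef1, and for each list its called members or, failing those, up to 3 with the largest differences. Defining markers were also listed. Other named genes, among them Shh, Smo, Gli2, Gli3, Cdon, Foxf1, Axin2, Pax9, Lum, Col1a1, Mcm2, Thbs4, Krt13, Xist, Meg3, Anks4b and the rest of the 31, were named after their values were seen. Some genes are not reported here.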

Additional observations from a re-analysis of the deposited data

Results flagged for a closer look

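In 158 groups of 4 libraries, over the named genes, 6 held a library far from the other 3 (its gap to the nearest library was past Dixon's 95% critical share of the range, which chance passes in about 1 of 20 groups). Ngfr was 4.85 in wild type replicate 1 and 4.58 to 4.62 in the others, Cbln4 was 0.95 there against 0.28 to 0.36, Lef1 was 4.48 against 4.69 to 4.74, and Dcn was 6.19 against 5.91 to 5.94. Krt1 was 3.61 in wild type replicate 2 and 3.08 to 3.14 in the others. Dkk1 was 3.06 in Cilk1-/- replicate 3 and 3.36 to 3.41 in the others.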

How the results depend on the processing

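The main counts were 59 genes lower and 71 higher. With the replicate block, which takes up the pairing of same-numbered libraries, they were 19 and 12. With all 11 libraries in one fit they were 36 and 26, and with the replicate block as well 2 and 2. In the latter fit no pairing of the compound mutant libraries with same-numbered ones was shown. Without a fold threshold they were 1331 and 1213, at a fold of 2 they were 4 and 7, and there Cilk1, at −0.73, was not called. A pseudocount of 0.1 gave 152 and 285 (65.2% higher, 54.6% in the main fit). Replicates 1 to 3 alone gave 24 and 14, and 17 and 4 with the replicate block. Leaving out 1 library gave 42 to 71 lower and 44 to 101 higher, and leaving out 1 pair with the replicate block gave 11 to 60 lower and 4 to 78 higher (16 and 13 without pair 3). Quantile scaling gave 65 and 57, and median centring 64 and 63. Ibsp and Bglap, neither called, turned to 0.0831 and 0.0640 in the replicate block fit without pair 3. The other counts stayed within 1.5 times, among them 57 and 64 without small RNA genes, an alternative chosen after seeing the data, as was the reading of pair 4. The causes were not tested. Over 79 named genes and 27 settings, 1672 values kept direction and side of the threshold, 426 lost the call, 26 gained it and 2 reversed. Depth is unknown, so the floor of low genes cannot be given.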
